A study of Sorghum bicolor with 4 samples.

Results

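The regions described here are the peaks of SbGhd7 that border long stretches of chromosome without any peak. SbGhd7 is a sorghum transcription factor with a CCT domain, known as a repressor of flowering. Its binding was mapped by ChIP-seq, the sequencing of immunoprecipitated chromatin, in mesophyll protoplasts of Sorghum bicolor, which are leaf cells freed of their walls. All protoplasts had expressed SbGhd7 transiently overnight at 24 degrees. The 4 samples form 2 groups of 2, Myc IP, in which an antibody to the Myc tag was used, and input chromatin without antibody. No label describes an IP from cells that lacked SbGhd7, and a transiently expressed protein may be present at other levels than in the plant. The deposited result is 1 list of 40087 peaks with no value per sample, so neither the spread between the 2 Myc IP samples nor that between the 2 input samples could be set beside any result, and a site bound in fewer cells cannot be told apart from a site bound more weakly.

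The members were chosen by peak positions alone, which are themselves measured values. On each chromosome the longest stretch between the end of one peak and the start of the next was located, and it was kept where it reached 1 Mb. Peaks whose summit lay within 3 Mb outside either edge of a kept stretch are the members, called flank peaks below, and the stretch itself is called the gap. Left and right mean lower and higher coordinates. The rule found 3920 flank peaks around 7 gaps, on chromosomes 1, 4, 5, 7, 8, 9 and 10. They make up 16.0% of the peaks of these chromosomes and are a part of the 35541 peaks on all 10 chromosomes.

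Cereal chromosomes carry a centromere embedded in pericentromeric heterochromatin, which is rich in retrotransposons and poor in genes. Centromeric DNA of grasses holds long arrays of a short satellite repeat mixed with centromere-specific retrotransposons. Short reads from repeats align to many places, and copies that an assembly merges or leaves out change the number of reads that a region collects from any chromatin, the input included. In rice, Ghd7 is known to act with NF-Y proteins on the promoters of flowering genes. No genome sequence and no gene coordinates of the list's build were used here, so neither the sequence under the peaks, the genes near them, nor the content of the gaps is described, and no gap is equated with a centromere.

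The 7 gaps were far longer than any other stretch without a peak on their chromosomes. In the 1-based coordinates of the deposited list, whose build is not given in the sources used here, the gap of chromosome 1 ran from 40803333 to 45655153 (4.85 Mb) and that of chromosome 4 from 28430079 to 32752980 (4.32 Mb). The gap of chromosome 7 ran from 32757302 to 36361643 (3.60 Mb), that of chromosome 9 from 27491972 to 30721770 (3.23 Mb) and that of chromosome 10 from 29123657 to 32235871 (3.11 Mb). The shortest were those of chromosome 8, from 26709349 to 29210960 (2501612 bp), and chromosome 5, from 48186595 to 50534593 (2.35 Mb). Each was between 5.72 and 11.7 times as long as the next longest stretch of its chromosome.

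The choice of 1 Mb was not close to any gap. Just inside it lay the gap of chromosome 5, with 2.35 Mb, and just outside it the longest stretch of chromosome 3, with 0.535 Mb. Chromosomes 6 and 2, with longest stretches of 0.446 and 0.408 Mb, were also left out. The middle of the gap stood at 44.6% to 53.5% of the length up to the last peak on 6 chromosomes and at 68.7% on chromosome 5. In the 3 chromosomes left out the longest stretch lay toward an end, at 80.3%, 85.0% and 98.8% of the length. The limit of 3 Mb fell between peaks of similar fold. The last peak inside it, on chromosome 7 to the right, had a fold of 3.33. The first outside it, on chromosome 4 to the left, had a fold of 3.04. Their backgrounds, a measure explained below, were 2.30 and 5.91, so the latter peak counts among the high-background peaks described below.

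Each gap is bounded by 2 edge peaks, whose place the rule fixes. The 14 peaks that form the edges had folds of 2.41 to 4.92 with a median of 3.59, where the fold is the authors' deposited enrichment of the IP relative to the background around the summit. In each of the 14 flanks the next summit followed within 0.319 to 9.14 kb, with a median of 1.93 kb. The number of peaks within the first 50 kb, the edge peak included, ranged from 4, on the right of chromosomes 5 and 8 and on the left of chromosome 1, to 19, on the left of chromosome 5.

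The pileup, which is the number of IP fragments over a summit, and the background, which is the number of fragments expected there from the control, were recovered from the fold and p-value of each peak. The control is taken to be the input, which the list does not state. At the edges the pileup ranged from 9 to 201 and the background from 1.99 to 76.0. On chromosome 10 the right edge peak, at 32235872 to 32236198, had a pileup of 19 over a background of 3.07 and a fold of 4.92 (95% counting interval 3.06 to 7.54). The left edge peak of the same gap, at 29123380 to 29123656, had a pileup of 201 over a background of 76.0 and a fold of 2.62 (2.27 to 3.01). Thus the edge peak with the deepest pileup had one of the lowest folds of the 14. On chromosome 9 the right edge peak had a pileup of 48 over 13.0 and the left one 22 over 4.60. On the other 5 chromosomes the edge pileups were 9 to 29 fragments. Counting intervals here are exact Poisson intervals with the background held fixed, and they cover counting error only.

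Peaks were denser in the flanks than elsewhere on the same chromosomes. The flanks held 93.3 ± 22.4 peaks per Mb (SD, n = 7 chromosomes), against 51.2 ± 5.64 in the rest of these chromosomes, and they were denser on 7 of 7. The zone from 3 to 10 Mb outside the gaps, which borders the flanks and is part of the rest, held 69.6 ± 9.67 peaks per Mb and was also below the flanks on 7 of 7. Pooled, the ratio of the flanks to the rest was 1.83 (1.77 to 1.89). No test is given for these differences, because peak positions chose the members and the chromosomes are not replicates. The interval treats peaks as independent and is too narrow where they cluster.

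The 14 flanks differed widely among themselves. The densest was the left flank of chromosome 5 with 186.3 peaks per Mb (171.2 to 202.4), and the sparsest the right flank of chromosome 4 with 50.0 (42.3 to 58.7). On chromosome 1 the right flank held 112.3 and the left flank 115.0 peaks per Mb, the next highest values. The other 10 flanks lay between 63.7, on the right of chromosome 7, and 103.7, on the left of chromosome 10. Without the left flank of chromosome 5 the pooled density of the flanks was 86.2 peaks per Mb.

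**Figure D1:**
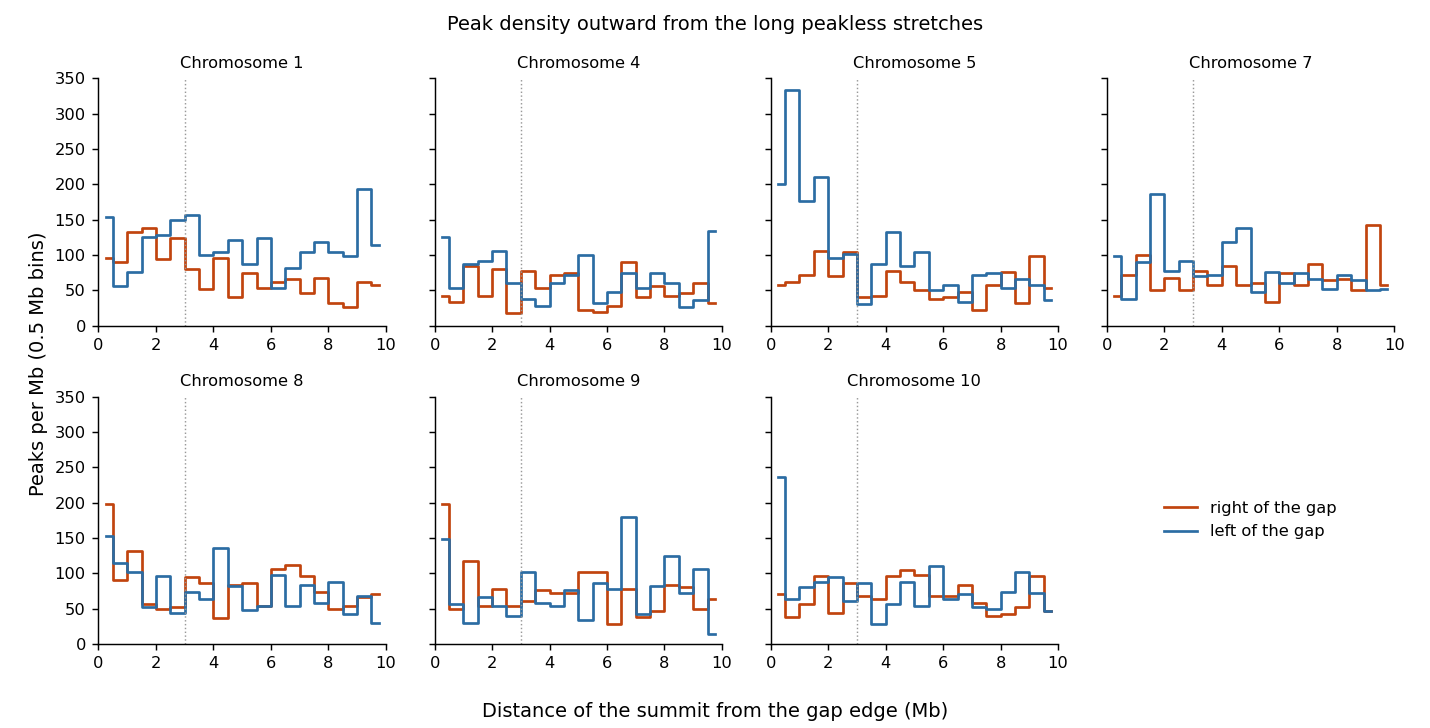
Peak density (peaks per Mb, in bins of 0.5 Mb) against distance of the summit from the gap edge (Mb), for the right and the left side of each of the 7 gaps, with a dotted line at 3 Mb. Each panel is 1 chromosome. The left side of chromosome 5 reaches 334 peaks per Mb between 0.5 and 1 Mb, and both sides of chromosomes 8 and 9 are highest in the first bin of the flank.

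Density was highest next to the gap when both sides were pooled. Over both sides of the 7 gaps it was 178.6 peaks per Mb (157.1 to 202.1) in the first 0.1 Mb, 135.7 (120.4 to 152.4) from 0.1 to 0.25 Mb and 106.9 (96.3 to 118.3) from 0.25 to 0.5 Mb. Single flanks ranged from 40 to 360 peaks per Mb in the first 0.1 Mb and from 6.67 to 346.7 from 0.1 to 0.25 Mb. The pooled density was 82.3 (75.7 to 89.3) from 0.5 to 1 Mb, or 62.9 without the left flank of chromosome 5. From 1 to 2 Mb it was higher again, at 95.4 and 97.3 in the 2 classes of 0.5 Mb. It was 81.1 from 2 to 2.5 Mb and 74.0 from 2.5 to 3 Mb. Farther out, the classes between 3 and 10 Mb held 66.9 to 75.4 peaks per Mb. The nearest 0.5 Mb was thus 1.75 times as dense as the farthest 0.5 Mb of the flanks (1.57 to 1.96). It was 1.73 times as dense without the 14 edge peaks, whose place the rule fixes. Leaving them out does not free the ratio from the rule, because distance still starts at a peak and peaks stood close together.

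This slope was not shared by all flanks. The nearest 0.5 Mb was denser than the farthest in 10 of 14 flanks, with 3 of 7 on the right and 7 of 7 on the left. On chromosome 8 the ratio was 3.81 on the right and 3.45 on the left, and on chromosome 9 it was 3.67 on the right and 3.70 on the left. On chromosome 10 it was 0.814 on the right and 3.93 on the left, the highest of all. Chromosome 5 had 0.558 on the right, the lowest of all, and 1.96 on the left. In the first 0.1 Mb the right sides together held 97.1 peaks per Mb (75.4 to 123.2) and the left sides 260.0 (223.6 to 300.6). Single flanks there ranged from 40 to 160 on the right and from 110 to 360 on the left. Pooled, the right sides were thus not densest at the edge, with 117.1 from 0.1 to 0.25 Mb and 99.1 from 1 to 1.5 Mb. The median right flank held 100 peaks per Mb in the first 0.1 Mb. From 0.1 to 0.25 Mb it held 53.3, with a range of 6.67 to 320. In the class from 2.5 to 3 Mb the 2 sides were closer, with 69.7 (61.2 to 79.0) on the right and 78.3 (69.3 to 88.1) on the left.

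**Figure D2:**
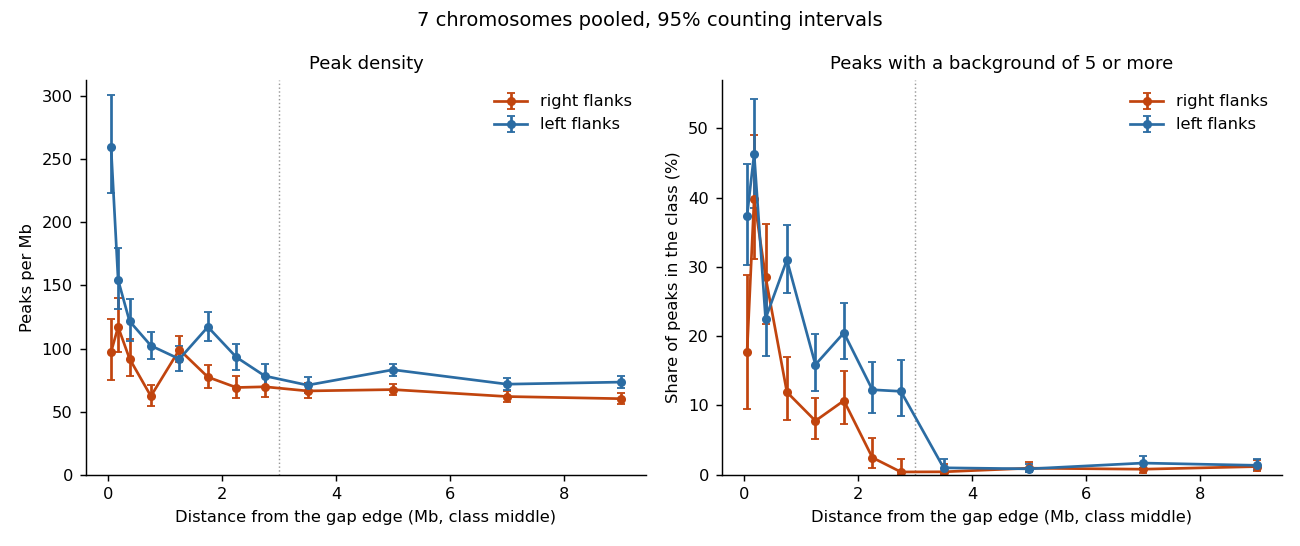
Peak density (left panel, peaks per Mb) and share of peaks with a background of 5 or more fragments (right panel, %) against distance from the gap edge (Mb, plotted at the class middle), for right and left flanks pooled over 7 chromosomes, with 95% counting intervals and a dotted line at 3 Mb. Pooled, both measures are highest within 0.25 Mb of the gap on either side, and the share is near 1% beyond 3 Mb. The median right flank, however, held 53.3 peaks per Mb from 0.1 to 0.25 Mb and 100 from 1 to 1.5 Mb.

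The rule treats the 2 sides alike, and their difference was set against its spread over chromosomes by an exact sign-flip test, two-sided, for 5 measures. The test takes the 7 chromosomes as its units, although they are not biological replicates, and density and spacing come from the same positions that the rule used. The smallest p this design can give is 0.0156, and a single measure adjusted over the 5 cannot go below 0.0781, so at a threshold of 0.05 no measure could have passed by itself. Right flanks held 79.7 ± 21.8 peaks per Mb and left flanks 107.0 ± 38.2 (SD, n = 7 chromosomes each). The right flank was the denser one on 2 chromosomes, 8 and 9, and the sparser one on 5. The mean difference of right minus left was -27.2 peaks per Mb (exact permutation p = 0.109, adjusted p = 0.547 by Benjamini-Hochberg over the 5 measures). It ranged from -107.7 on chromosome 5 to 26.3 on chromosome 9.

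On average the other 4 measures differed between the sides by less than the SD of their right minus left differences over chromosomes. The same held for density, where that SD was 43.1 peaks per Mb. The median distance between neighbouring summits averaged 2209 ± 549 bp in right flanks and 2238 ± 617 bp in left flanks (exact permutation p = 0.938, n = 7). The median width averaged 228.2 ± 12.3 bp in right flanks and 227.6 ± 13.6 bp in left flanks (exact permutation p = 0.969, n = 7). The median fold averaged 3.68 ± 0.101 and 3.65 ± 0.112 in right and left flanks (exact permutation p = 0.656, n = 7), and the median background 2.58 ± 0.537 and 2.88 ± 1.00 (exact permutation p = 0.594, n = 7). After adjustment over the 5 measures these 4 had p = 0.969 in the exact permutation test.

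**Figure D3:**
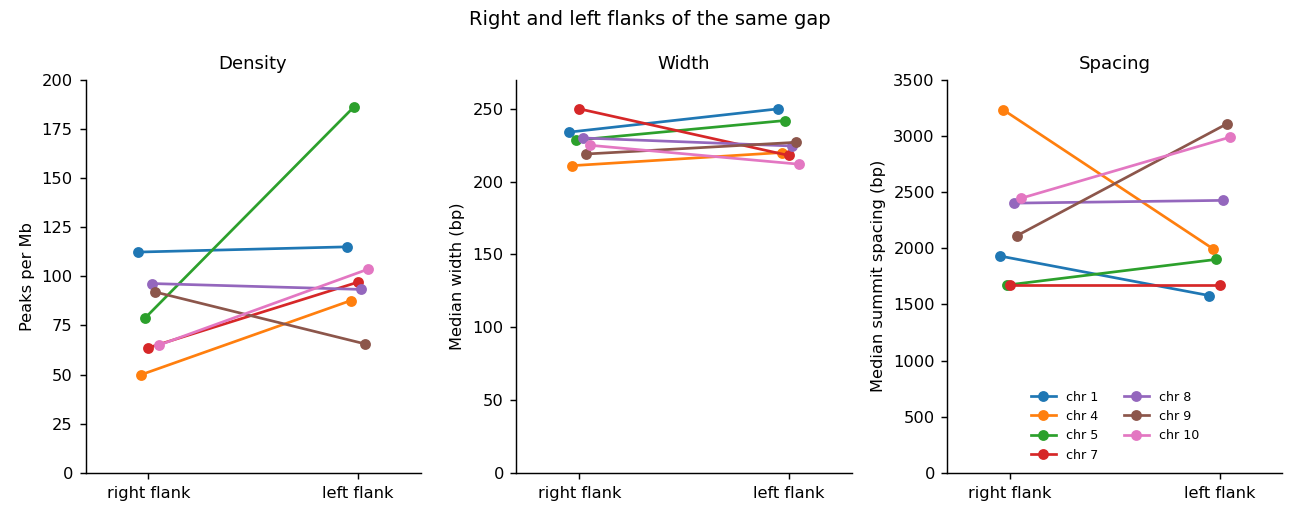
Peak density (peaks per Mb), median peak width (bp) and median distance between neighbouring summits (bp) in the right and the left flank of each gap, joined by a line for each of the 7 chromosomes. The lines run in both directions in all 3 panels, and the steepest line for density is that of chromosome 5, with 78.7 on the right and 186.3 on the left.

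High background was common in the flanks. A background of 5 fragments or more was found at 706 of the 3920 flank peaks, or 18.0% (95% Clopper-Pearson interval 16.8 to 19.2), where 3.77% of all chromosome peaks reached it. In the rest of the same 7 chromosomes 203 of 20622 peaks reached it, or 0.984% (0.854 to 1.13), and in the bordering zone from 3 to 10 Mb it was 1.09% (0.853 to 1.36). The flanks, with 42 Mb of 446 Mb outside the gaps, held 77.7% of the peaks with such a background on these chromosomes. This figure depends on the threshold, and it was 36.7% for a background of 3 or more, 68.7% for 10 or more and 46.9% for 20 or more. Blocks of such peaks also lay outside the flanks. The densest 1 Mb of chromosome 9 was at 7 to 8 Mb, far from its gap, with 51 of its 180 peaks of background 5 or more. That of chromosome 1 was at 31 to 32 Mb, with 10 of 37. The share was higher in the flanks than in the rest on 6 of 7 chromosomes. By chromosome it averaged 16.8 ± 13.1% in the flanks (SD, n = 7 chromosomes), from 0.880% to 40.4%, and 1.03 ± 0.842% in the rest. The intervals of such shares, here, below and in the figures, treat peaks as independent and are too narrow where peaks cluster. These are values of the same peaks whose positions chose the members, so they are given without a test.

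The high-background peaks were uneven between flanks. The left flank of chromosome 5 held 292 of the 706, or 41.4%, and 52.2% of its peaks (48.0 to 56.4) had a background of 5 or more. Its median background of 5.15 was the highest of the 14 flanks. On chromosome 8 the share was 30.8% in the right flank and smaller in the left flank, with 28 of 280 peaks, and on chromosome 9 it was 23.2% in the right flank and 21.8% in the left flank. On chromosome 10 it was 2.56% in the right flank and 25.1% in the left flank, and on chromosome 4 it was 2.67% and 17.1% in the same order. In all, 9 flanks lay above the 3.77% of all chromosome peaks, the lowest of them at 7.90%, and 5 below it.

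Chromosome 1, which has the longest gap, had the fewest. Its right flank held 5 such peaks among 337 and its left flank 1 among 345, so that the 0.880% of its flanks was level with the 0.935% of its rest. Yet its flanks were the second densest, with 113.7 peaks per Mb against 47.4 in its rest. On chromosome 7 the right flank held 0 such peaks among 191, where a binomial interval reaches up to 1.91%, and the left flank 23 among 291. High density and high background therefore did not go together in every flank. Without the left flank of chromosome 5 the share over the other 13 flanks was 12.3%.

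**Figure D4:**
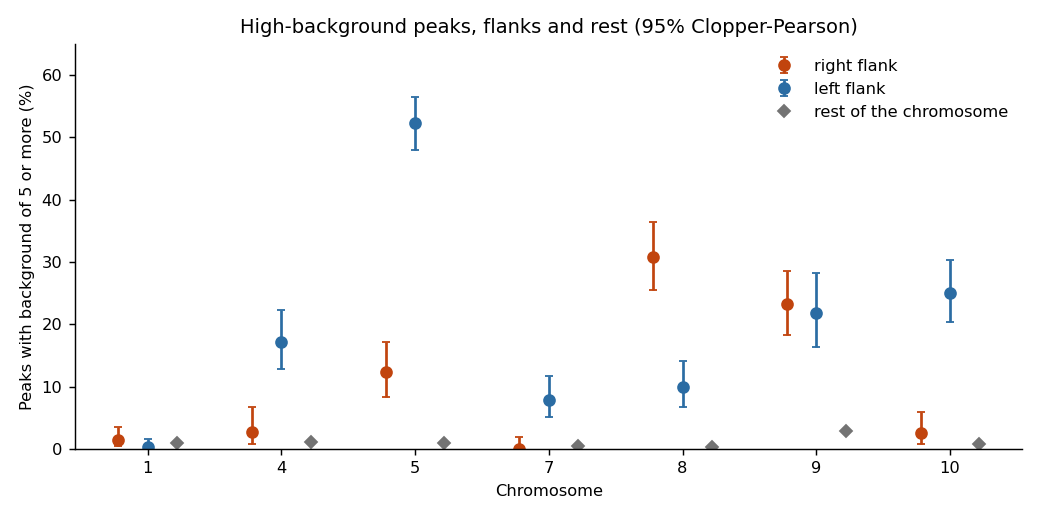
Share of peaks with a background of 5 or more fragments (%) in the right flank, the left flank and the rest of each of the 7 chromosomes, with 95% Clopper-Pearson intervals for the flanks. The left flank of chromosome 5 stands at 52.2%, while both flanks of chromosome 1 and the right flank of chromosome 7 stand under 2%, and the rest is at most 2.83%.

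The share of high-background peaks also changed with distance when the flanks were pooled. It was 32.0% in the first 0.1 Mb (26.3 to 38.2), 43.5% from 0.1 to 0.25 Mb (37.7 to 49.5) and 25.1% from 0.25 to 0.5 Mb (20.8 to 29.9). It was 23.8% from 0.5 to 1 Mb and 11.7% from 1 to 1.5 Mb. A second rise to 16.6% from 1.5 to 2 Mb was followed by 8.10% and 6.56% in the last 2 classes. Beyond the flanks it was 0.728% from 3 to 4 Mb (0.293 to 1.49), with 7 such peaks among 962. The left flank of chromosome 5 gave 101 of the 137 such peaks from 0.5 to 1 Mb and 47 of the 78 from 1 to 1.5 Mb. Without it the share was 46.3% from 0.1 to 0.25 Mb, 24.4% from 0.25 to 0.5 Mb, 8.80% from 0.5 to 1 Mb and 5.34% from 1 to 1.5 Mb, and it was 1.07% from 2.5 to 3 Mb. The share was higher in the first than in the last 1 Mb of the flank in 9 of 14 flanks. The median background was 3.58 in the first 0.1 Mb, 4.60 from 0.1 to 0.25 Mb and 2.31 from 2.5 to 3 Mb.

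The distance over which high background reached differed by flank. In the left flank of chromosome 10 all 78 such peaks lay within 1 Mb of the gap, and in the right flank of chromosome 9 62 of 64 did. In the left flank of chromosome 5 the count was 133 from 0 to 1 Mb, 110 from 1 to 2 Mb and 49 from 2 to 3 Mb. In the left flank of chromosome 4 it was 23, 0 and 22 in the same zones, and in the right flank of chromosome 5 it was 1, 28 and 0. The high-background peaks of a flank could thus lie next to the gap, in a separate block, or both.

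The chromosomes without such a gap also had blocks of high background. On chromosome 6, 231 peaks, or 7.60%, had a background of 5 or more, and 95.7% of them fell in 1 stretch of 6 Mb between 19.8 and 25.8 Mb. On chromosome 3 it was 56 peaks, with 73.2% between 31.2 and 37.2 Mb, and on chromosome 2 it was 143, with 51.7% between 32.5 and 38.5 Mb and a further 48 of the 143 in the first 1 Mb of the chromosome. For comparison, such stretches of 6 Mb, placed where they hold the most, took in 57.8% to 93.6% of the high-background peaks on the 7 chromosomes with a gap.

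Backgrounds were higher in the flanks and folds slightly lower. The median background of the flanks averaged 2.76 ± 0.728 over the 7 chromosomes, against 2.29 ± 0.0174 in the rest, and was higher on 7 of 7. The median pileup averaged 13.4 ± 2.15 fragments in the flanks and 12 in the rest, where it was the same on every chromosome, and was higher in the flanks on 4 of 7 and equal on 3. The median fold averaged 3.65 ± 0.0729 in the flanks and 3.75 ± 0.0162 in the rest, and it was lower in the flanks on 6 of 7 chromosomes, chromosome 1 being the exception. Within bands of background, pooled over chromosomes, the order varied. Below a background of 2.5 the median fold was 3.87 in both, and at 2.5 to 5 it was 3.58 in the flanks and 3.50 in the rest. At 5 to 10 it was 3.30 and 2.98 in the same order, and at 10 or more 2.98 and 4.51. The bands do not match backgrounds fully. At 10 or more the upper quartile of the background was 17.5 in the flanks and 58.5 in the rest, and at 2.5 to 5 it was 3.80 and 3.18. The fold adds 1 to both the pileup and the background, which lowers it more where the background is low.

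More flank peaks passed a strict threshold on the q-value. A −log10 q of 5 or more was reached by 1034 flank peaks, or 26.4%, against 16.5% in the rest of the same chromosomes, where the figure for all chromosome peaks was 18.3%. The share was higher in the flanks on 7 of 7 chromosomes. At a given fold the q-value falls as the background grows, and the background moved with this share. Where the background was below 2.5 the share was 18.2% in the flanks and 16.8% in the rest, and at backgrounds of 2.5 to 5 it was 23.7% and 14.9% in the same order. At backgrounds of 5 to 10 it was 47.0% in the flanks and 29.8% in the rest. At 10 or more the order turned, with 68.3% of 180 flank peaks and 92.7% of 82 peaks in the rest. In that open band the backgrounds of the rest reached higher than those of the flanks. The part of the background in the number of strong q-values was not tested.

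Large folds were not more common. Folds reached 5 at 319 flank peaks, or 8.14%, against 8.76% in the rest, where 8.47% of all chromosome peaks reached it. Folds reached 8 at 2 flank peaks, or 0.0510%, where 0.129% of all chromosome peaks reached it. The first lay 0.305 Mb to the right of the gap of chromosome 8, at 29515899 to 29516339, with a pileup of 31, a background of 2.92 and a fold of 8.17 (5.63 to 11.5). The second lay 1.85 Mb to the right of the gap of chromosome 1, at 47505538 to 47506232, with a pileup of 24, a background of 2.11 and a fold of 8.05 (5.27 to 11.8). The lower limits of both were under 8, and these intervals are not adjusted for picking the peaks by their fold.

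A background of 50 or more was found at 5 flank peaks, or 0.128%, where 0.101% of all chromosome peaks reached it. The highest lay 700.0 kb to the right of the gap of chromosome 5, at 51234316 to 51234774, with a pileup of 751 over a background of 187.3 and a fold of 3.99 (3.71 to 4.29). To the left of the gap of chromosome 10 the edge peak was joined by a peak 2.89 kb from the edge, at 29120676 to 29120882, with 186 over 86.5 and a fold of 2.14 (1.84 to 2.46). On the left of chromosome 9 a peak of 1034 bp at 27462309 to 27463342 had 174 over 71.0 and a fold of 2.43 (2.09 to 2.82). On the left of chromosome 1 a peak 2.46 Mb from the gap, at 38345837 to 38346036, had 231 over 66.4 and a fold of 3.44 (3.02 to 3.92). Of these 5 peaks, 3 lay within 30 kb of a gap, and those 3 had the lowest folds.

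Peak width differed little. The median width averaged 227.5 ± 10.4 bp in the flanks and 221.5 ± 2.66 bp in the rest, and it was larger in the flanks on 4 of 7 chromosomes. A width of 500 bp or more was found at 395 flank peaks, or 10.1%, against 8.52% in the rest, where 8.53% of all chromosome peaks reached it. Over the distance classes the median width lay between 216 bp, in the first 0.1 Mb, and 239 bp, from 0.1 to 0.25 Mb. Among peaks with a background of 10 or more it was 253.5 bp in the flanks and 538 bp in the rest. The widest flank peak, of 2142 bp, lay on the left of chromosome 7 at 30307075 to 30309216 with a fold of 4.80. The next were a peak of 1983 bp on the right of chromosome 8 at 29347786 to 29349768, with a fold of 4.69, and one of 1885 bp on the right of chromosome 1 at 47573800 to 47575684, with a fold of 4.98.

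Flank peaks stood close together. The median distance between neighbouring summits, pooled over the flanks, was 2054 bp, against 2654 bp in the rest and 2410 bp from 3 to 10 Mb. By chromosome it was shorter in the flanks than in the rest on 7 of 7, and shorter than from 3 to 10 Mb on 5 of 7, with chromosomes 4 and 9 the other way. The short distances were alike, with 26.4% under 1 kb in the flanks and 23.5% in the rest. The long ones differed more, with 5.84% over 50 kb in the flanks and 12.7% in the rest, and a 90th percentile of 30.2 kb against 61.7 kb. Chains of summits less than 10 kb apart held 4.53 peaks on average in the flanks and 3.26 in the rest. Single peaks with no neighbour within 10 kb made up 7.22% of flank peaks and 13.8% of the rest.

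**Figure D5:**
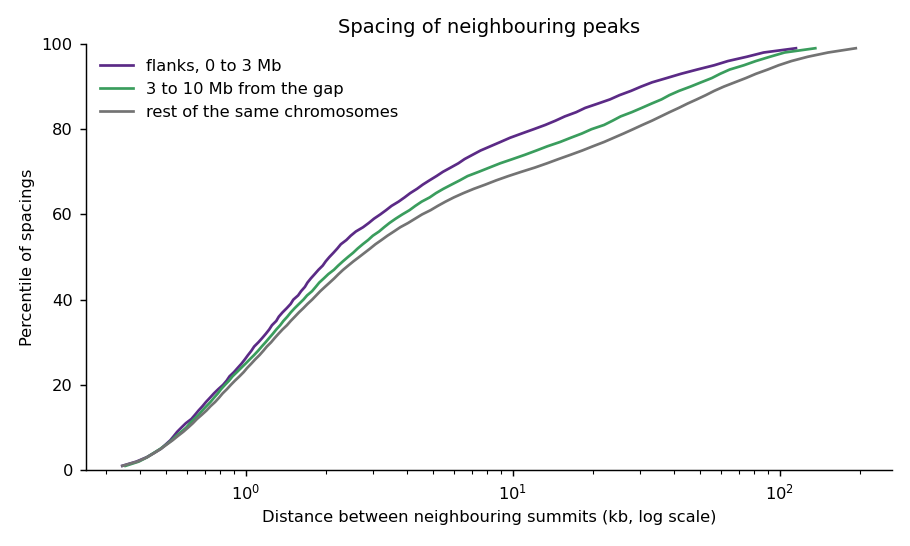
Percentiles (1st to 99th) of the distance between neighbouring summits (kb, log scale) in the flanks, in the zone from 3 to 10 Mb and in the rest of the same 7 chromosomes. The 3 curves start together below 1 kb and part at longer distances, where the flank curve runs at shorter distances than the other 2.

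Inside the flanks the peaks were patchy. Windows of 100 kb held from 0 to 56 peaks, with a mean of 9.33 and a variance 7.05 times the mean over 420 windows. In the rest the mean was 5.10 and the ratio 5.37 over 4031 windows. Flank windows were pooled over flanks of 50.0 to 186.3 peaks per Mb, so their variance also takes in differences between flanks. As the means differ as well, the 2 ratios do not show that the flanks were patchier than the rest. No peak lay in 5.48% of flank windows and in 14.5% of the others, and 20 or more lay in 42 of the 420 flank windows and in 1.91% of the others. The longest stretch without a peak inside a flank was 0.231 Mb, on the left of chromosome 8, so that 0 inner stretches reached 0.3 Mb. The longest inner stretch of the left flank of chromosome 5 was 0.0695 Mb, the shortest such value of the 14 flanks.

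The longest chains differed in background. The longest of all held 77 peaks over 138.8 kb on the left of chromosome 5, from 47431724 to 47570529, with a median background of 5.15 and folds of 2.59 to 5.91. A chain of 44 peaks over 61.6 kb on the left of chromosome 10, from 28946592 to 29008207, began 0.116 Mb from the gap and had a median background of 5.80. On the right of chromosome 8 a chain of 36 peaks from 29292535 to 29358110 held peaks of a median width of 399.5 bp, at a median background of 4.45. Other chains had no high background. A chain of 34 peaks on the left of chromosome 8, from 24334249 to 24387863 and 2.32 Mb from the gap, had a median background of 2.26, a highest background of 3.83 and a median fold of 4.06. A chain of 28 peaks on the right of chromosome 9, from 33069103 to 33099199, had a highest background of 3.83 and a median fold of 3.78. On the right of chromosome 5 a chain of 30 peaks from 52370286 to 52402639 had a median fold of 3.09, and it held 28 of the 29 high-background peaks of that flank. Runs of peaks in the flanks thus occurred at low and at high background.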

How the data were processed

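Per the submitters' processing notes, BWA 0.7.17.2 and MACS2 2.2.7.1 were used; settings, build and the handling of replicates are not stated in the sources used here. The authors deposited 1 list of narrow peaks with a fold ratio, a score (10 times the −log10 p, truncated), the −log10 p and the −log10 q of each peak. Other deposited columns are positions. A single alignment name stands in every peak name, so the list may rest on 1 library or on several. The whole-number pileup and the background behind each fold and p-value were recovered for all 40087 peaks, within a relative tolerance of 2e-05 of the p-value. On 4000 simulated peaks, made with the same formulas that the recovery inverts, 100% of pileups were recovered. This checks the calculation only and cannot show what the control was. Total reads per library are unknown. The members, measures and thresholds were chosen with earlier results of these data known. The comparison of right and left flanks and the rule for named peaks (edge peaks, folds of 8 or more, backgrounds of 50 or more, the 3 widest) were written down first; the zone from 3 to 10 Mb, the background of 5, the width of 500 bp, the chains and the windows were added later. Chains and windows described singly were picked for their size. Chromosome length is the end of the last peak, a lower bound. RefSeq gene coordinates were not used. Tools were scipy 1.17.1, numpy 2.4.6 and pandas 2.3.3 under Python 3.11.15, with figures drawn by matplotlib 3.10.9.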

Additional observations from a re-analysis of the deposited data

How the results depend on the processing

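No paired analysis was possible because the deposited columns hold nothing per sample, so no sample could be left out either. In 1 alternative, called strict q here, peaks had to reach a −log10 q of 5, and in another, called clusters merged, the peak with the highest fold stood for each chain of summits within 10 kb. For right against left flanks, the smallest adjusted p of a single measure is 0.0781 with 7 chromosomes and 0.156 with 6, so the side of the threshold says nothing about stability under the 14 alternatives. Right minus left density stayed below 0 under all of them, from -3.33 peaks per Mb with clusters merged to -49.3 with flanks of 1 Mb, and from -13.8 to -36.2 with 1 chromosome left out. Of the others, the background changed sign in 1 setting and the fold, spacing and width in several. For the median fold right minus left was -0.011 with flanks of 2 Mb, -0.012 with flanks of 1 Mb and -0.012 with clusters merged, 0.250 with strict q, and 0.031 as reported. For the median spacing it was 83.0 bp with flanks of 2 Mb, 1015 bp with flanks of 1 Mb, 1406 bp with gaps of 0.5 Mb or more, 12911 bp with strict q and 5899 bp with clusters merged, where it was -29.1 bp as reported. For the median width it was -4.36 bp with flanks of 2 Mb and -6.57 bp with flanks of 1 Mb, 70.1 bp with strict q, and 0.571 bp as reported. For the median background it was -0.847 with strict q and -0.306 as reported. With 1 chromosome left out these differences ranged from -0.0018 to 0.0816 for the fold, -239.8 to 131.5 bp for the spacing, -4.67 to 3.33 bp for the width and -0.581 to 0.117 for the background, which turned positive without chromosome 5.

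The nearest 0.5 Mb stayed denser than the farthest 0.5 Mb, with a ratio of 1.33 in flanks of 2 Mb, 2.25 with strict q, 1.41 with clusters merged, 1.26 with a background under 5, and 1.56 to 2.06 with 1 chromosome left out. The ratio of flank to rest density stayed above 1. It was 1.95 with flanks of 2 Mb, 1.99 with flanks of 1 Mb, 1.67 with gaps of 0.5 Mb or more, 2.92 with strict q, 1.32 with clusters merged, 1.51 with a background under 5, and 1.72 to 1.91 with 1 chromosome left out. The share of flank peaks with a background of 5 or more was 22.1% with flanks of 2 Mb, 29.3% with flanks of 1 Mb, 35.8% with strict q, 11.4% with clusters merged, and 12.3% to 21.6% with 1 chromosome left out, lowest without chromosome 5. The flanks held 36.7% of the peaks of the 7 chromosomes with a background of 3 or more, 68.7% with 10 or more and 46.9% with 20 or more, thresholds chosen after seeing the data.

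In the flanks the median background was 2.74 with flanks of 2 Mb, 3.29 with flanks of 1 Mb, 3.70 with strict q, 2.30 with clusters merged, 2.41 with a background under 5, and 2.45 to 2.63 with 1 chromosome left out. The median fold was 3.62, 3.58, 4.68, 4.23 and 3.74 under the same 5 alternatives. The median width was 317 bp with strict q and 238 bp with clusters merged. The median spacing was 6354 bp and 37963 bp under these 2, and 2258 bp with a background under 5. There were 1485 members with flanks of 1 Mb, 1034 with strict q and 866 with clusters merged. The counts moved because fewer peaks were kept; for the other values the cause was not tested. With gaps of 2 Mb or more the same 7 gaps were kept.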
